A study of Rattus norvegicus with 6 samples.

Results

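Interferon-stimulated effector genes encode the proteins that carry out the antiviral response of a cell. A list of 40 such genes was followed in cultures described as rat spinal cord neurons, in which GAL3, the lectin encoded by LGALS3, was silenced. The genes were matched by symbol, and 39 of the 40 were among the 17648 genes of the deposited expression matrix, with SAMD9L not listed. They were selected on the measured difference between the siR-GAL3 and siR-Con libraries of these same data and on siR-Con values at or below 0, so that difference is given for them as a description and without a test.

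Neonatal Sprague-Dawley rats gave the spinal cord neurons, which had been cultured for 3 days with Ara-C added to raise neuronal purity. There were 3 libraries of the Glu + siR-Con group, which received a control small interfering RNA (siRNA), and 3 of the Glu + siR-GAL3 group, which received an siRNA against GAL3. In the nerve injury model, neurons were exposed to 10 μM glutamate for 1 h and cultured without it for a further 16 h, and the paper and the design text give this exposure for both groups. The treatment label of the siR-Con samples names saline instead, and the labels call the siR-GAL3 samples a knockout. If the treatment labels hold, glutamate and silencing differ together between the groups and cannot be told apart. The statistics section of the paper speaks of independent repeated experiments for its data in general, but no source states for these libraries that those of a group came from separate cultures, so their spread may be technical.

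Interferons are secreted proteins that bind receptors on the cell surface and activate the kinases JAK1, TYK2 and JAK2. Type I interferons lead to a complex that contains STAT2 and IRF9 and binds a DNA element called ISRE in the promoters of interferon-stimulated genes. Interferon gamma acts through another promoter element, called GAS. The products act at several steps of infection: IFITM proteins and BST2 at membranes, Mx GTPases, IFIT and OAS proteins on incoming virus particles and RNA, ISG15 as a protein tag, and guanylate-binding and IRG GTPases on the compartments of intracellular microbes. In the spinal cord, microglia, astrocytes and neurons can all respond to interferons.

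The promoters of the genes were read first, because they were not used to choose the list. RefSeq promoter sequences of assembly GRCr8, each running from 250 bases before to 50 bases after the annotated start, were matched by symbol for 30 of the 40 genes. IFITM1, MX2, IFIT1, IFIT2, OAS2, ISG15, USP18, IFI27L2B, SAMD9L and RTP4 were not matched. An ISRE-like match was defined as GAAANNGAAA on either strand, which reads TTTCNNTTTC on the opposite strand, and a GAS-like match as TTCNNNGAA, which reads the same on both strands. An ISRE-like match was found in 22 of the 30 promoters (73.3%), against 3.92% of all 33469 RefSeq promoters and 2.81% of the 13063 promoters of the other genes in the matrix. A GAS-like match was found in 8 of the 30 (26.7%), against 8.87% and 6.85%. A match to these letters describes the sequence only and does not show that a factor was bound. The ISRE is an element of interferon-stimulated genes, so its share describes the kind of genes listed and not these libraries.

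Matches are shown for 10 genes whose levels are described below. Only 250 bases before to 50 bases after the start were searched, so nothing is read from their distance to it. Each line runs 5′ to 3′ on the strand of the gene, and capitals mark the ISRE-like and any adjoining GAS-like letters. BST2 lies at chr16:18255063-18255124 (minus strand), IFITM3 at chr1:205541763-205541822 (minus strand), OAS1A at chr12:41330405-41330460 (plus strand) and OAS1B at chr12:41395876-41395931 (minus strand). IFI27 lies at chr6:128355208-128355257 (plus strand), RSAD2 at chr6:48788238-48788287 (minus strand) and EPSTI1 at chr15:59693346-59693395 (plus strand). IGTP lies at chr10:42874913-42874973 (plus strand), IRGM at chr10:33742583-33742643 (minus strand) and PARP14 at chr11:78408027-78408087 (plus strand).
BST2: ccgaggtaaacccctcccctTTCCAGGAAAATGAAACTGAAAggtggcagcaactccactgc
IFITM3: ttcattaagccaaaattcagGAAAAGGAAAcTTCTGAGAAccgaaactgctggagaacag
OAS1A: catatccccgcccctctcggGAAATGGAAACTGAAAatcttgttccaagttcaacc
OAS1B: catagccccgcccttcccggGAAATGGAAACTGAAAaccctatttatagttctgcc
IFI27: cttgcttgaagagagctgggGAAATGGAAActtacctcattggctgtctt
RSAD2: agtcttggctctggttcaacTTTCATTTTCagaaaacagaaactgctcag
EPSTI1: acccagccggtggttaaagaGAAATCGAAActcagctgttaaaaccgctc
IGTP: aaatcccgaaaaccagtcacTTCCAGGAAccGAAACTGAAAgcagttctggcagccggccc
IRGM: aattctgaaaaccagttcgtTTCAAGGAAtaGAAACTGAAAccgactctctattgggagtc
PARP14: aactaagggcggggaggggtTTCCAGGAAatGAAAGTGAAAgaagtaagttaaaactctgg

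In IGTP, IRGM and PARP14 the GAS-like letters ended 2 bases before the ISRE-like letters, so that the 3 promoters shared one arrangement. In BST2 the GAS-like letters overlapped the first of 2 overlapping ISRE-like matches by 3 bases, and in IFITM3 they began 1 base after the ISRE-like match. The OAS1A and OAS1B stretches were identical at 45 of 56 positions and carried the same pair of overlapping ISRE-like matches. In RSAD2 the match stood on the opposite strand. The promoters without an ISRE-like match in this stretch were those of HERC6, CMPK2, TRIM25, IFI35, MX1, PARP9, OASL and PLAC8. Their median log2 fold change, the fitted difference of siR-GAL3 minus siR-Con on log2(value + 1), was 0.40, and that of the 22 genes with a match was 0.61. Single genes ranged from 0.16 to 1.28 without a match and from 0.02 to 2.41 with one. The list was chosen on this difference, so nothing is read from the medians.

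**Figure D1:**
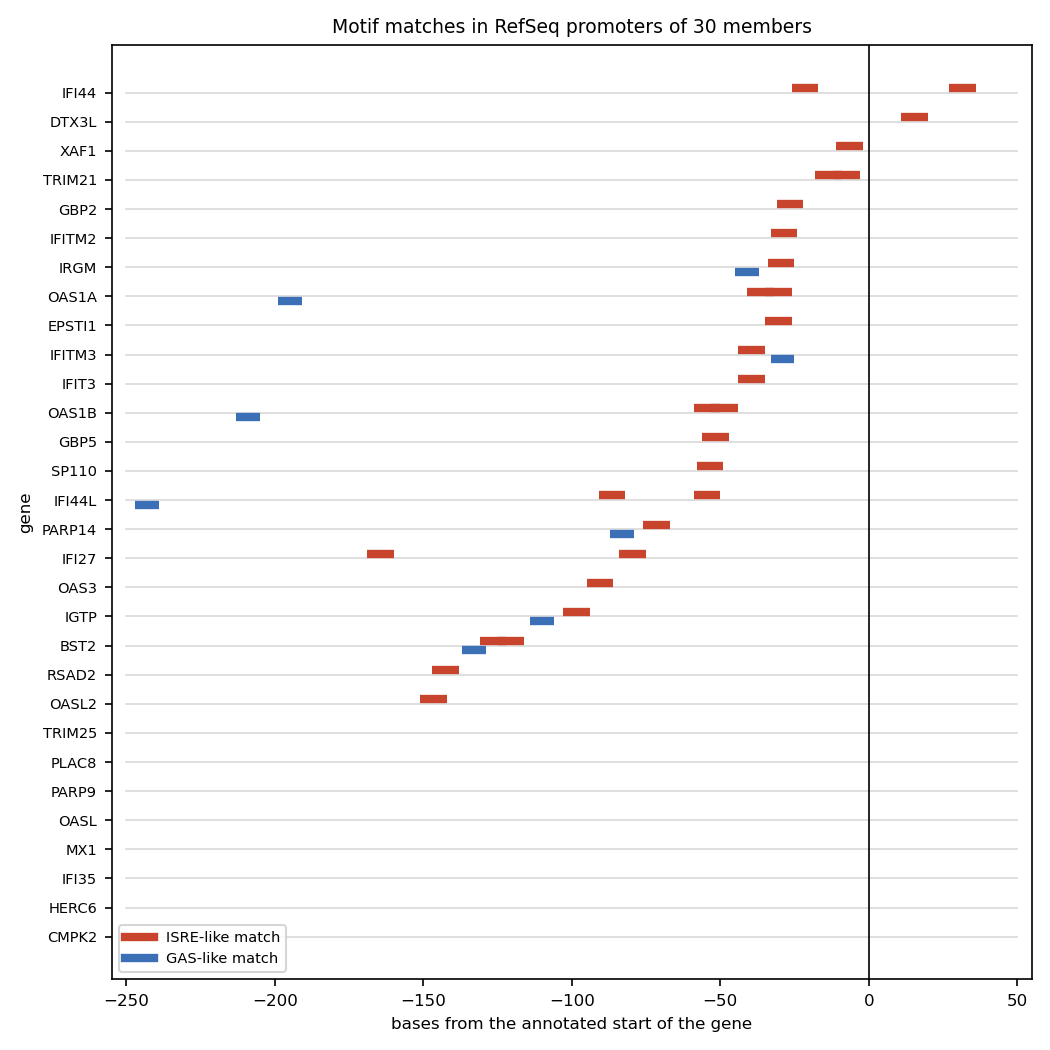
Positions of ISRE-like (red) and GAS-like (blue) matches in the RefSeq promoters of 30 interferon-stimulated genes, in bases from the annotated start of each gene (vertical line). An ISRE-like match is drawn for 22 genes, and in IGTP, IRGM and PARP14 the GAS-like match ends 2 bases before it.

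The expression values were on a linear scale derived from FPKM, which counts fragments per length of transcript and per depth of the library, and the authors had afterwards removed batch effects and corrected differences within groups. Of all values 3.86% were below 0, the depth of the libraries is unknown, and a value of about 1 is low on this scale. Exactly equal values tied the libraries into 3 sets: siR-Con 1 with siR-GAL3 1, siR-Con 2 and 3 with siR-GAL3 3, and siR-GAL3 2 alone. The targeted gene LGALS3 was at 77.4, 54.4 and 62.4 in siR-Con 1, 2 and 3 and at -1.64, 32.3 and 18.5 in siR-GAL3 1, 2 and 3. Its means were 64.8 ± 11.7 and 16.4 ± 17.1 (SD, n = 3), with a log2 fold change of -2.91 (SE 1.20, limma adjusted p = 0.571, exact permutation p = 0.1, which is the smallest that 3 against 3 libraries allow). LGALS3 thus differed widely among the siR-GAL3 libraries and was lowest in siR-GAL3 1, without which its log2 fold change was -1.35. With limma over the 8495 genes whose mean reached 1, 0 genes had an adjusted p under 0.05 and 736 had an unadjusted p under 0.05. With siR-GAL3 2 left out, 167 genes had an adjusted p under 0.05, and with siR-Con 1 left out 17.

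The neuronal label was checked against markers. The summed level of 19 neuronal markers was 48.3 to 53.6 in siR-Con and 52.5 to 54.2 in siR-GAL3, and NEFH, CHAT, ISL1, SLC17A6 and SLC6A5 had means under 0.1. MAP2, a neuronal microtubule protein, was at a mean of 17.4 in siR-Con and 16.5 in siR-GAL3. RBFOX3, which marks mature neurons, was at 0.396 and 0.369. Of the 8 neuronal markers tested, 6 had a higher and 2 a lower fitted value in siR-GAL3. Glial markers were higher: 10 astrocyte markers summed to 1019 to 1145 in siR-Con and 860 to 923 in siR-GAL3, and 12 oligodendrocyte lineage markers to 1092 to 1158 and 1102 to 1429. The 18 microglial markers, none of them with a mean under 0.1, summed to 146 to 175 in siR-Con and 187 to 209 in siR-GAL3, and 14 of the 16 tested were higher in siR-GAL3. The libraries thus held RNA of glial markers beside neuronal ones, and the levels given below cannot be assigned to one cell type. In bulk RNA, more cells of a type and more RNA per cell cannot be told apart.

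Among the interferon-stimulated genes, 36 of 39 were higher in every siR-GAL3 library than in every siR-Con library. Over all 17648 genes the same was true of 9.01%. The exceptions were IFITM1, DTX3L and PLAC8. The 16 genes whose mean reached 1 had a median log2 fold change of 0.68, with quartiles of 0.52 and 1.39, and 15 of the 16 did not overlap, against 10.3% of the 8495 genes tested, whose median was near 0. BST2, IFI27, IFI27L2B, MX2 and OAS1B passed the criteria of the study, a log fold change above 1 and an unadjusted p under 0.05, applied here to log2(value + 1), which 0.259% of the genes tested passed in this direction. With siR-Con 1 left out 8 genes of the list passed, namely these with IFITM3, MX1 and XAF1, of which MX1 and XAF1 had means under 1 over all 6 libraries. On the values as deposited, with neither a log scale, a trend nor a filter, 10 passed, MX2 not among them. There the cut of 1 applied to a difference of expression values and not to a log fold change, so that count is on another measure. Since this contrast chose the list, these counts describe it and nothing is read from them. The summed level of the 39 genes was 46.6, 26.05 and 24.1 in siR-Con 1, 2 and 3 and 124, 79.5 and 80.4 in siR-GAL3 1, 2 and 3.

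**Figure D2:**
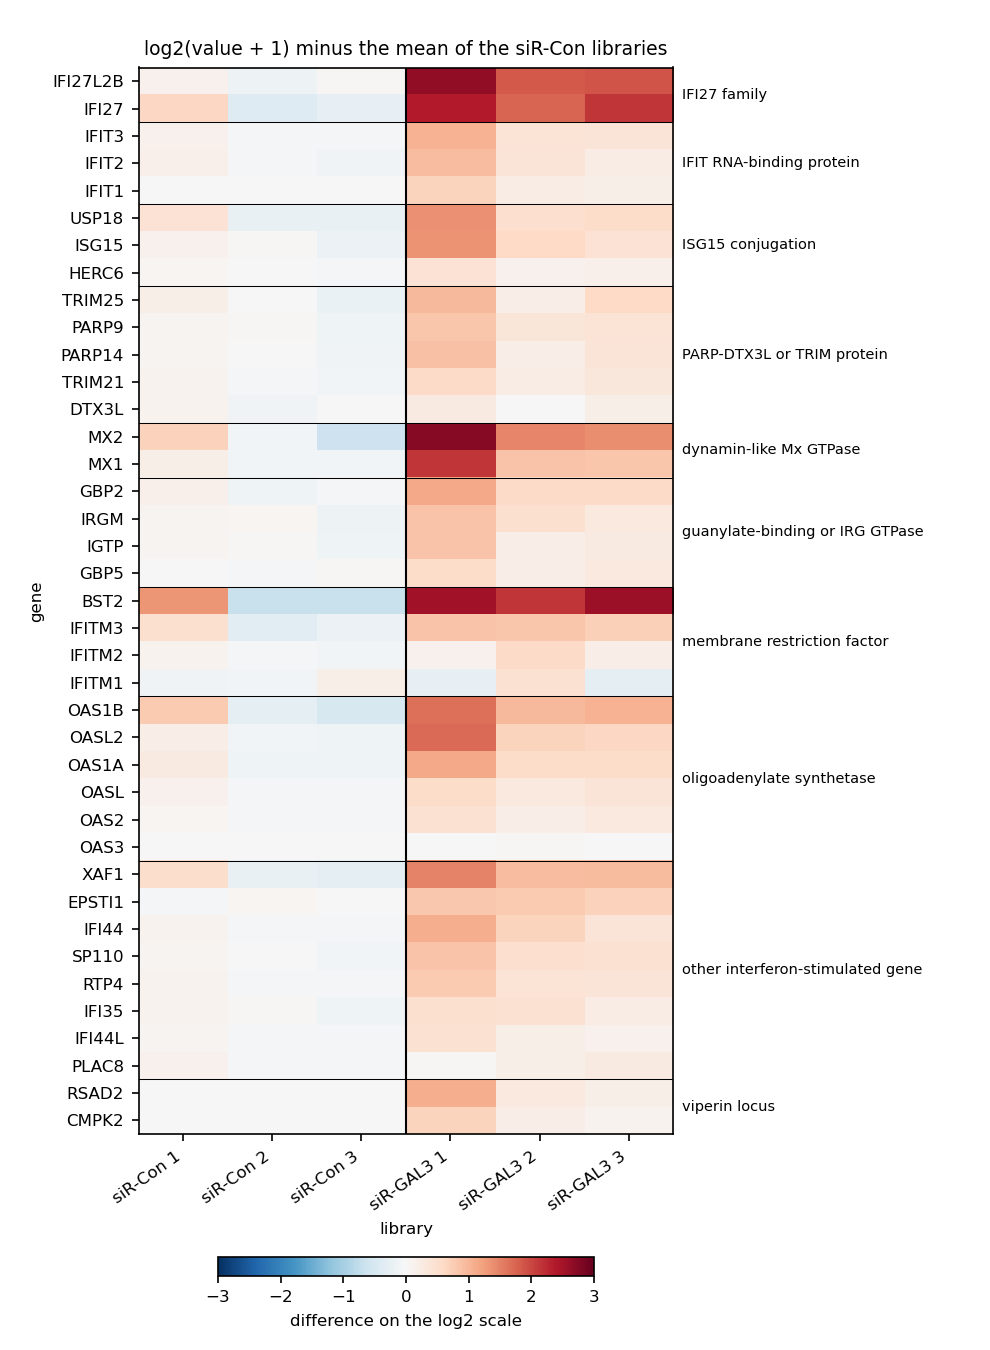
Heat map of 39 interferon-stimulated genes (lines, grouped by role) in 6 libraries (columns). Colour gives log2(value + 1) minus the mean of the 3 siR-Con libraries, with values below 0 set to 0. The siR-GAL3 1 column is the reddest for 34 of the 39 genes, and IFITM1 stays near white or turns blue in siR-GAL3 1 and 3.

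The membrane restriction factors included IFITM3, the gene with the highest level of the list. IFITM3, which blocks the fusion of viruses with endosomes, was at 11.6, 6.20 and 6.96 in siR-Con 1, 2 and 3 and at 15.3, 15.0 and 13.7 in siR-GAL3 1, 2 and 3, a log2 fold change of 0.80 (SE 0.22). The siR-GAL3 libraries were close together and the highest control was siR-Con 1. BST2, or tetherin, which holds budding viruses at the cell surface, was at 3.00, -0.841 and -1.14 in siR-Con and at 8.03, 6.07 and 8.39 in siR-GAL3. This was the largest log2 fold change of the list, at 2.41 (SE 0.58), with 2 control values below 0 that were set to 0, and it was 4.58 with a pseudocount of 0.1. IFITM2 was at 3.59, 3.15 and 2.99 in siR-Con and at 3.60, 5.27 and 3.83 in siR-GAL3, where siR-GAL3 1 lay barely above siR-Con 1. Its log2 fold change was 0.29, and 0.15 without siR-GAL3 2. IFITM1 was at 1.58, 1.65 and 2.17 in siR-Con and at 1.35, 2.84 and 1.28 in siR-GAL3, and its groups overlapped, with 2 of the siR-GAL3 libraries below every control. The IFITM genes are close copies of each other, so reads may have been divided among them in counting.

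The Mx proteins are dynamin-like GTPases that trap viral ribonucleoproteins. MX2 was at 2.36, 0.959 and 0.352 in siR-Con and at 12.8, 4.75 and 4.47 in siR-GAL3, a log2 fold change of 1.87 (SE 0.49). The siR-GAL3 1 value was about 2.79 times the mean of the other two. MX1, with a mean of 0.891, was at 0.211, -0.0997 and -0.312 in siR-Con and at 3.71, 0.934 and 0.905 in siR-GAL3, so siR-GAL3 1 lay far above the other siR-GAL3 libraries.

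The IFI27 family encodes small membrane proteins of the mitochondria and the nuclear envelope. IFI27 was at 3.53, 1.25 and 1.46 in siR-Con and at 14.1, 8.75 and 11.9 in siR-GAL3, with means of 2.08 ± 1.26 and 11.6 ± 2.68 (SD, n = 3) and a log2 fold change of 2.08 (SE 0.31). IFI27L2B was at 0.800, 0.50 and 0.685 in siR-Con and at 9.42, 4.96 and 5.09 in siR-GAL3, and its siR-GAL3 mean was 9.81 times the siR-Con mean, the largest ratio among the 26 genes with all controls above 0. Its log2 fold change was 2.13 (SE 0.24). Over these 26 genes the median ratio of the means was 2.21 and the lowest, of IFITM1, 1.01.

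The oligoadenylate synthetases sense double-stranded RNA and make the messenger that activates RNase L. OAS1B was at 1.40, 0.150 and -0.124 in siR-Con and at 3.44, 1.74 and 1.89 in siR-GAL3, a log2 fold change of 1.22 (SE 0.38), or 2.81 with a pseudocount of 0.1. The genes OAS1F and OAS1K held the same values as OAS1B in every library, so the 3 copies cannot be told apart. OAS1A was at 0.339, -0.186 and -0.246 in siR-Con and at 1.43, 0.608 and 0.610 in siR-GAL3, and OASL2 at 0.363, 0.121 and 0.0931 and at 2.83, 0.900 and 0.813. OAS2, OASL and OAS3 stayed under 1 in every library, and OAS3, at 0.0299 to 0.0520, was close to absent in both groups. All 6 genes were nonetheless without overlap between the groups.

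The guanylate-binding and IRG proteins are large GTPases of cell-autonomous immunity. GBP2 was at 2.15, 1.61 and 1.79 in siR-Con and at 5.22, 3.24 and 3.22 in siR-GAL3 (log2 fold change 0.76, SE 0.18). IGTP was at 1.79, 1.68 and 1.41 and at 3.78, 1.99 and 2.14 (0.44, SE 0.19), and IRGM at 0.764, 0.727 and 0.483 and at 1.99, 1.29 and 1.03 (0.54, SE 0.16). In each of these siR-GAL3 1 was the highest library, and the lowest siR-GAL3 library of IGTP was only slightly above siR-Con 1. Without siR-GAL3 1 the log2 fold change of IGTP was 0.23. GBP5 lay below 1 throughout, at up to 0.196 in siR-Con and 0.340 to 0.711 in siR-GAL3.

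The PARP and TRIM proteins modify other proteins in antiviral signalling. PARP9, which acts together with the ubiquitin ligase DTX3L, was at 1.42, 1.32 and 1.09 in siR-Con and at 3.07, 1.94 and 2.03 in siR-GAL3. TRIM25, a ubiquitin ligase of RIG-I signalling, was at 1.35, 1.12 and 0.830 and at 3.12, 1.41 and 2.14. TRIM21, an Fc receptor inside the cell that recognises antibody-coated virus, was at 1.89, 1.66 and 1.57 and at 3.05, 2.16 and 2.42. These 3 genes had log2 fold changes of 0.54, 0.59 and 0.38, and their groups did not overlap. PARP14 reached 1.79 in siR-GAL3 1 and 0.733 and 0.980 in siR-GAL3 2 and 3, with controls of 0.415 to 0.615. DTX3L was at 0.364, 0.177 and 0.276 in siR-Con and at 0.543, 0.268 and 0.441 in siR-GAL3, where siR-GAL3 2 fell within the controls.

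EPSTI1, named for an interaction of epithelium and stroma, had the smallest error of the 16 genes whose mean reached 1. It was at 1.16, 1.32 and 1.27 in siR-Con and at 2.92, 2.90 and 2.64 in siR-GAL3, a log2 fold change of 0.76 (SE 0.06). SP110, a nuclear body protein, was at 1.46, 1.34 and 1.18 in siR-Con and at 3.20, 2.27 and 2.20 in siR-GAL3 (log2 fold change 0.60, SE 0.12). Both had controls that differed little from each other.

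**Figure D3:**
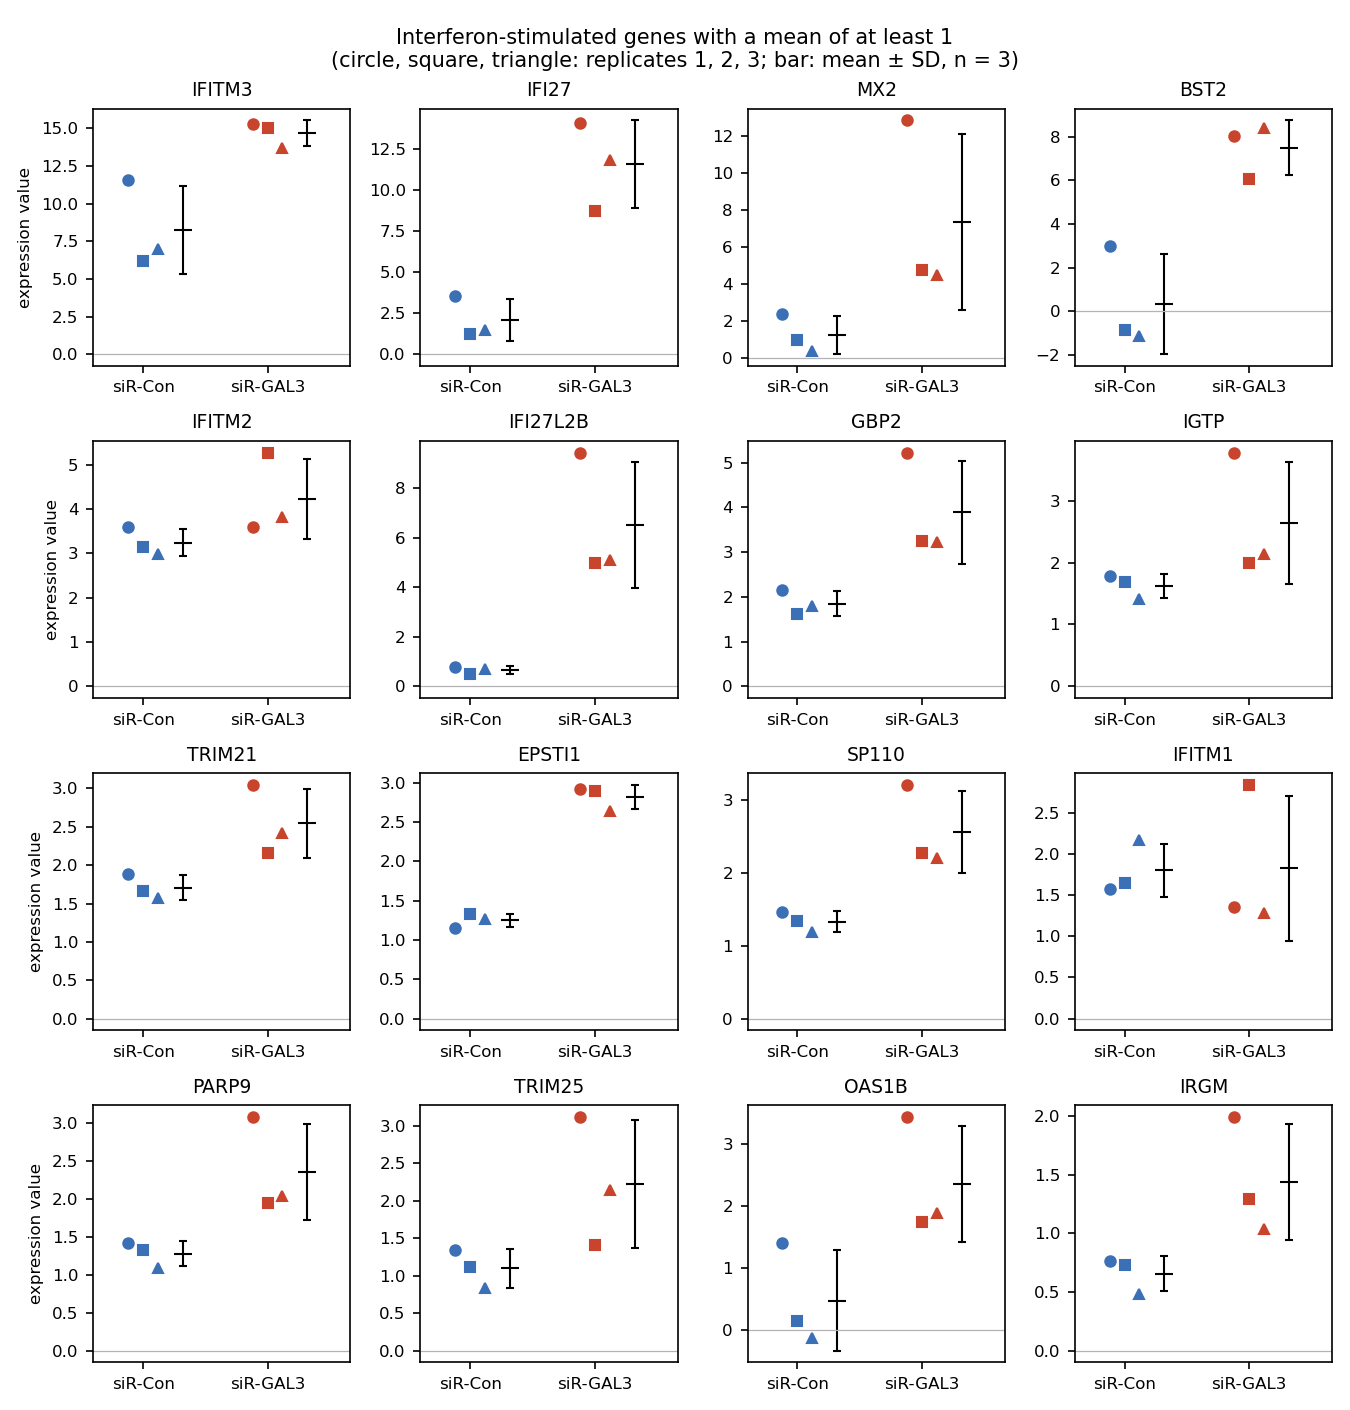
Expression values (linear scale derived from FPKM) of the 16 interferon-stimulated genes with a mean of at least 1, each with its own axis. Circles, squares and triangles are replicates 1, 2 and 3 of siR-Con (blue) and siR-GAL3 (red), and bars are the mean ± SD (n = 3). In EPSTI1 the groups lie far apart with little spread, in MX2 siR-GAL3 1 stands above the other siR-GAL3 libraries, and in IFITM1 the groups overlap.

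The other 23 listed genes had means under 1. Their siR-Con values ran from -0.312 to 0.847 and their siR-GAL3 values from 0.0358 to 3.71, with medians of the group means of 0.0416 and 0.635. For these the log2(value + 1) scale understates ratios. In 13 of them the highest library reached 1, and in the other 10 no library did.

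Of the genes that reached 1, ISG15, the ubiquitin-like tag, was at 0.360, 0.288 and 0.108 in siR-Con and at 2.18, 0.879 and 0.684 in siR-GAL3. USP18, which removes that tag and dampens the interferon receptor, was at 0.558, -0.195 and -0.287 and at 1.99, 0.657 and 0.710. RSAD2, or viperin, which makes a chain-terminating nucleotide, was at 0.105, 0.0917 and 0.103 and at 1.35, 0.355 and 0.248. In these 3 genes siR-GAL3 1 stood well above the other siR-GAL3 libraries, which still exceeded every control. CMPK2, the neighbour of RSAD2 in the genome, reached 1.03 in siR-GAL3 1 over controls of 0.263 to 0.287. IFIT3 and IFIT2, which bind viral RNA, reached 1.15 and 1.46 in siR-GAL3 1, with their highest controls at 0.148 and 0.440. XAF1, a promoter of apoptosis, was at 0.763, 0.0419 and -0.0836 in siR-Con and at 2.42, 1.34 and 1.36 in siR-GAL3. IFI44 and IFI35 reached 2.11 and 1.38 in siR-GAL3 1, against highest controls of 0.573 and 0.847. The 10 genes that never reached 1 were IFIT1, OAS2, OAS3, OASL, HERC6, GBP5, DTX3L, IFI44L, RTP4 and PLAC8. PLAC8 stood apart among them, with siR-GAL3 1 at 0.0769, below siR-Con 1 at 0.139.

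The controls were uneven. In 34 of 39 genes siR-Con 1 was the highest control, against 38.1% of all genes. A value below 0 was listed in at least 1 control for 13 genes, in siR-Con 2 for 9, in siR-Con 3 for 12 and in siR-Con 1 for IFIT1, and in no siR-GAL3 library. Both siR-Con 2 and siR-Con 3 lay at or below 0 in BST2, MX1, IFIT3, OAS1A, OAS2, OASL, USP18, RTP4 and PLAC8, a pattern found in 2.27% of all genes. The choice of the genes drew on this pattern. A value below 0 is no amount of RNA, so no ratio of means is given for these 13 genes, and their log2 fold changes depend on setting such values to 0. siR-Con 1, the highest control for most of the genes, had the lowest microglial marker sum of all libraries, at 146. Whether the microglial sum bears on the levels was not tested.

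The siR-GAL3 libraries also differed from one another, a comparison within one group that the choice of the genes did not use directly. In 34 of 39 genes siR-GAL3 1 was the highest of the 3, against 28.8% of all genes, with siR-GAL3 2 highest in IFITM1, IFITM2 and OAS3 and siR-GAL3 3 in BST2 and PLAC8. The ratio of siR-GAL3 1 to the mean of siR-GAL3 2 and 3 had a median of 1.84 over the 39 genes and was above 2 in 15, against a median of 0.960 and 2.45% of the 15849 genes with all siR-GAL3 values above 0. The ratio was largest in RSAD2 at 4.48, MX1 at 4.04, IFIT1 at 3.85, OASL2 at 3.30, IFIT3 at 3.02 and USP18 at 2.91. It was close to 1 in EPSTI1 at 1.05, IFITM3 at 1.07, BST2 at 1.11 and IFI35 at 1.16, and below 1 in IFITM2 at 0.791, OAS3 at 0.724, IFITM1 at 0.655 and PLAC8 at 0.354. By role, the median ratio was 3.47 for RSAD2 and CMPK2, 3.41 for the Mx genes, 3.02 for the IFIT genes and 2.79 for ISG15 conjugation, and 0.928 for the membrane restriction factors. siR-GAL3 1 was also the library with the lowest LGALS3 value and with the highest microglial marker sum, at 209 against 189 and 187, and whether either bears on the ratio was not tested.

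**Figure D4:**
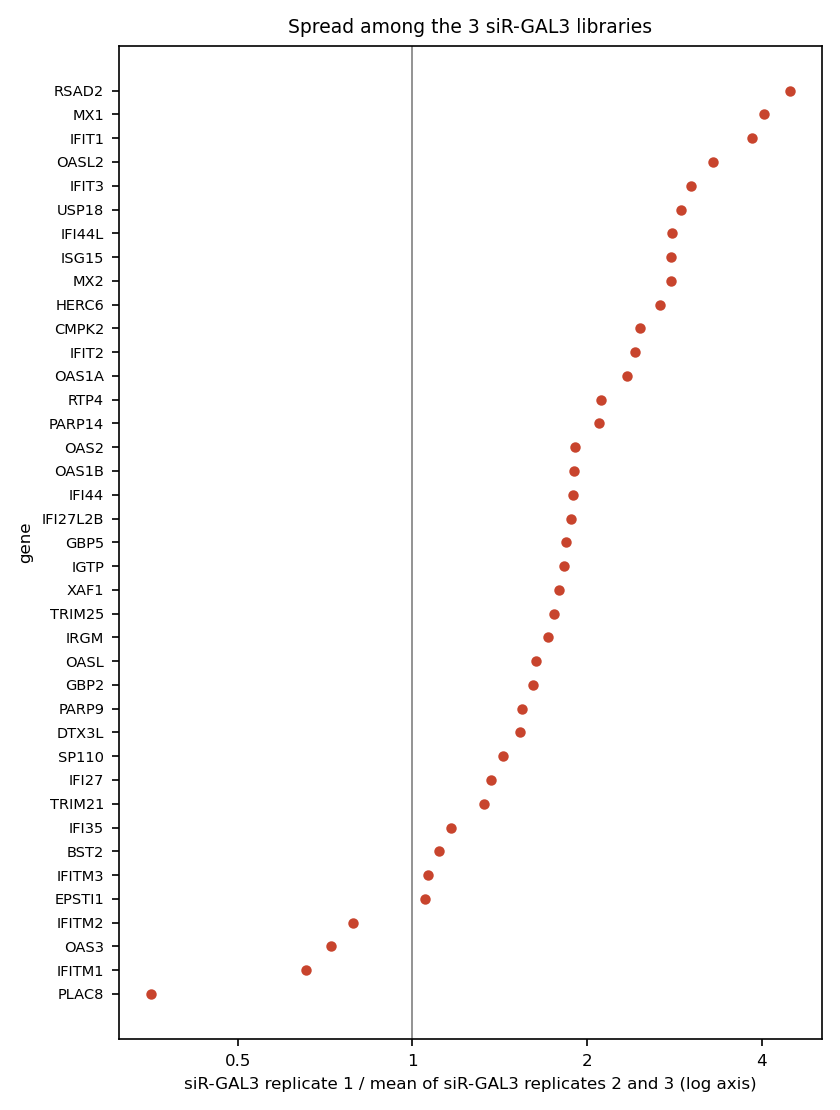
Ratio of siR-GAL3 1 to the mean of siR-GAL3 2 and 3 (log axis) for 39 interferon-stimulated genes, ordered by the ratio. RSAD2, MX1 and IFIT1 lie near 4, EPSTI1, IFITM3 and BST2 near 1, and IFITM2, OAS3, IFITM1 and PLAC8 below 1.

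Because the library sets could bear on both groups, the difference was also read within each set that held both. Within the first set, siR-GAL3 1 exceeded siR-Con 1 in 37 of 39 genes, against 43.4% of all genes, with a median difference of 0.771 on log2(value + 1). Within the second, siR-GAL3 3 exceeded the mean of siR-Con 2 and 3 in 38 of 39 genes, against 46.1%, with a median of 0.449. In both sets the median over all genes was 0. The same 37 genes were higher in both, IFITM1 was lower in both, and PLAC8 was lower in the first and higher in the second. siR-GAL3 2, alone in its set, exceeded every control in 38 of 39 genes, against 42.7% of all genes, the exception being DTX3L. These counts use the same values that chose the list. The 36 genes without overlap are higher in each of these comparisons by definition, so the counts describe the list only. MX1, OASL2 and ISG15 differed more within the first set and BST2, IFI27 and OAS1B more within the second, where the BST2 controls were below 0.

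**Figure D5:**
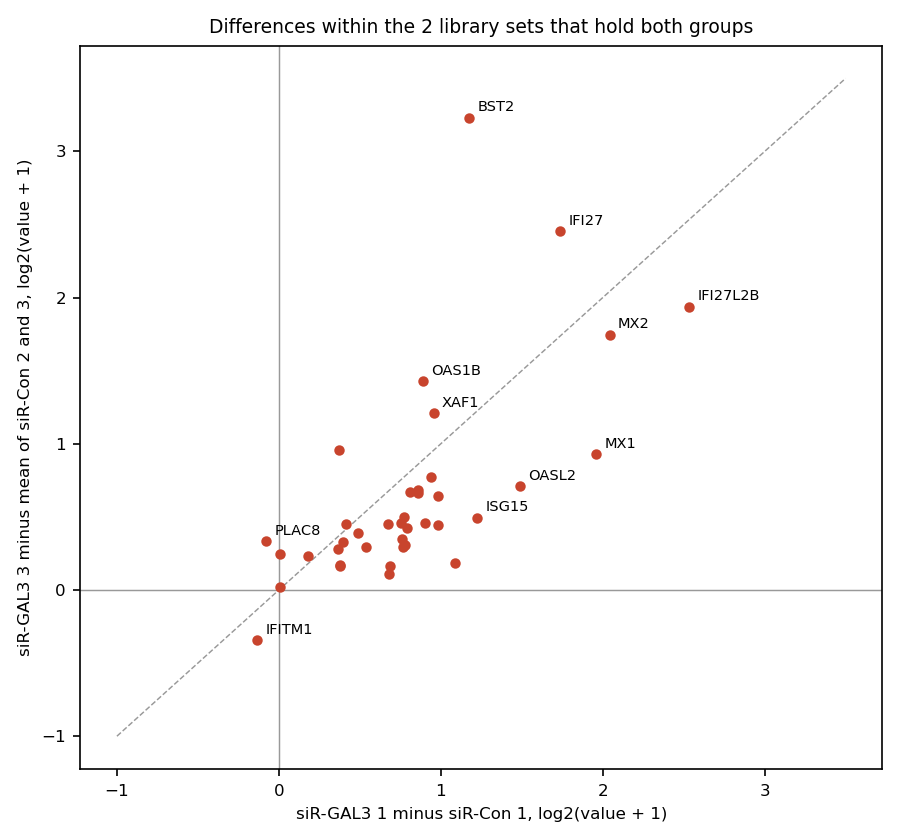
Difference on log2(value + 1) between siR-GAL3 and siR-Con within the first library set (horizontal axis, siR-GAL3 1 minus siR-Con 1) and within the second (vertical axis, siR-GAL3 3 minus the mean of siR-Con 2 and 3) for 39 interferon-stimulated genes. The dashed line marks equal differences. All points but PLAC8 and IFITM1 lie above 0 on both axes, with BST2 farthest up and IFI27L2B farthest right.

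Genes upstream of the effectors were not on the list and were tested. Their lists were also written with earlier results of these data known, so the tests are not free of that knowledge. Over all 8495 genes, 4.41% were higher and 4.25% lower in siR-GAL3 at an unadjusted p under 0.05. Of 17 genes of interferon receptors and JAK-STAT signalling, 6 were higher and 0 lower at that level, and 0 at an adjusted p under 0.05, with a median log2 fold change of 0.07. PTPN6, a phosphatase that restrains cytokine receptors and is abundant in blood-derived cells and microglia, was at 2.62, 3.06 and 2.59 in siR-Con and at 4.26, 3.74 and 4.0 in siR-GAL3 (log2 fold change 0.41, limma adjusted p = 0.174). IFNGR1, a receptor chain for interferon gamma, was at 6.30, 6.54 and 6.06 and at 7.60, 9.08 and 7.78 (0.32, limma adjusted p = 0.316).

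IRF9 and STAT2 of the ISRE-binding complex, named here after their values were seen, had log2 fold changes of 0.66 (limma adjusted p = 0.419) and 0.51 (limma adjusted p = 0.519). In both siR-GAL3 1 was again the highest library, at 4.10 for IRF9 and 4.59 for STAT2. The receptor chains for type I interferon did not pass the test, with IFNAR1 at -0.11 and IFNAR2 at 0.03 on the log2 scale, and neither did the kinases JAK1 at -0.18, JAK2 at -0.02 and TYK2 at -0.07. IRF7, the factor that amplifies interferon production, had a mean below 1 and was at 1.18, -1.63 and -1.79 in siR-Con and at 2.83, 1.66 and 2.25 in siR-GAL3. Of the interferons on the pathway list, IFNB1 and IFNG were not listed, and IFNE did not exceed 0.0112 in any library.

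Of 10 genes of nucleic acid sensing, 3 were higher and 0 lower at an unadjusted p under 0.05, and 0 at an adjusted p under 0.05, with a median log2 fold change of 0.09. IRF5, a factor downstream of Toll-like receptors, was at 1.03, 1.28 and 1.03 in siR-Con and at 1.60, 1.48 and 1.52 in siR-GAL3 (0.26, limma adjusted p = 0.333). DDX58, the RNA helicase RIG-I, was at 1.33, 1.16 and 1.05 and at 2.72, 1.51 and 1.60 (0.41, limma adjusted p = 0.535). EIF2AK2, the kinase PKR that halts translation on double-stranded RNA, was at 3.36, 2.83 and 2.57 and at 5.83, 3.51 and 3.82 (0.44, limma adjusted p = 0.535). The adaptor MAVS and the factor IRF3 had log2 fold changes of 0.03 and -0.01.

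MHC class I genes, which present peptides to T cells and also respond to interferons, had 8 of 10 tested genes higher and 0 lower at an unadjusted p under 0.05, and 0 at an adjusted p under 0.05, with a median log2 fold change of 0.66. B2M, the light chain, was at 40.4, 28.0 and 29.6 in siR-Con and at 78.9, 65.5 and 73.2 in siR-GAL3 (1.14, limma adjusted p = 0.101). RT1-A1 and RT1-A2 are heavy chains, and near-identical copies make their separate counts uncertain. RT1-A1 was at 3.27, 2.04 and 1.61 and at 6.62, 5.85 and 6.63 (1.19, limma adjusted p = 0.109), and RT1-A2 at 2.93, 1.26 and 1.61 and at 5.54, 5.95 and 5.15 (1.20, limma adjusted p = 0.130). In these 3 genes siR-GAL3 1 lay close to the other siR-GAL3 libraries, whereas in RT1-S3 and TAP1, named after their values were seen, it was the highest, at 6.78 against 2.76 and 3.66 and at 3.58 against 2.12 and 2.30. In the same fit 7 of 16 microglial markers were higher at an unadjusted p under 0.05, and their part in these differences was not tested.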

How the data were processed

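RNA of 6 libraries of cultures described as rat spinal cord neurons was sequenced. According to the methods, the authors aligned reads with STAR, counted them with HTSeq 0.5.4, computed FPKM, removed batch effects, standardized the data and corrected differences within groups, so that the deposited values are another quantity than FPKM and their spread within a group may be reduced. The genome build is not given in the sources used here. Selection of polyadenylated RNA is described in the supplement but ribosomal depletion in the labels, and different sequencing instruments are named. All columns were mapped to samples by name, and 0 were left out. The planned unit was FPKM; because values below 0 occur, they were set to 0 and log2(value + 1) was fitted with limma 3.58.1 (R 4.3.3, intensity trend, siR-GAL3 against siR-Con) over genes with a mean of at least 1. The SEs of the interferon-stimulated genes came from the same model fitted without this filter, over all 17648 genes. Their log2 fold changes are the same in both fits. The SE of LGALS3 came from the fit with the filter. Adjusted p-values are Benjamini-Hochberg values over all 8495 genes. The fit was tested on simulated data. No counting error could be given, since the depth is unknown.

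The interferon-stimulated genes, the pathway and marker lists and the library sets were chosen with earlier results of these data known. Genes whose mean reached 1 were given in every library, those below it by name where their highest library reached 1, and of each pathway list the 3 genes with the smallest p, of which 1 is not reported here. Further genes were named after their values were seen. Promoters came from RefSeq (GRCr8) and were searched with Python 3.11.15. Alternatives were another pseudocount, filters, scalings, blocks and each library left out.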

Additional observations from a re-analysis of the deposited data

How the results depend on the processing

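Of 222 log2 fold changes of single interferon-stimulated genes over the alternatives, 211 were above 0, and the values that changed sign were those of IFITM1, at 0.07 without siR-Con 3, 0.09 without siR-GAL3 1 and 0.11 without siR-GAL3 3, over a range from -0.27, without siR-GAL3 2, to 0.11 with 1 library left out. The median of the genes was 0.95 with a pseudocount of 0.1, the only alternative that moved single genes by more than their spread, apart from the sign changes of IFITM1. Leaving out 1 library moved IGTP, IFITM2 and IFITM1 by over 1.5 times. Of the 36 genes without overlap 24 had no value below 0, and most other alternatives cannot change this count by their construction. The genes of the list that passed the criteria of the study numbered 3 with genes holding a value below 0 left out, 0 with a mean of at least 10, where IFITM3 alone was tested, and 10 with neither a log scale, a trend nor a filter, and 5 to 8 when 1 library was left out, with 8 without siR-Con 1. All genes passing numbered 27, and 15, 5 and 316 under these 3 settings. In the last setting the cut of 1 applied to a difference of expression values and not to a log fold change. The genes of the sensing and JAK-STAT lists at an unadjusted p under 0.05 numbered 9, and 0 with a mean of at least 10, 12 without a filter, and 6 to 12 when 1 library was left out, with 6 without siR-Con 2 or siR-Con 3 and 12 without siR-GAL3 2.

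LGALS3 was at -4.03 with a pseudocount of 0.1 (limma unadjusted p = 0.0894), and its p also missed 0.05 at -2.91 without a filter (0.0762) and with a mean of at least 10 (0.0537). With 1 library left out it ranged from -3.88 to -1.35, the latter without siR-GAL3 1, and the p was above 0.05 without siR-Con 1, 2 or 3. The limma unadjusted p was 0.0462 in the main fit, and 0.0014, 0.0052 and 0.0404 without siR-GAL3 1, 2 and 3. Blocking by replicate number gave -2.91 (limma unadjusted p = 0.025), and blocking by library set gave -3.61 (limma unadjusted p = 0.0059). LGALS3 was not tested where genes with a value below 0 were left out, and values without a log scale gave no log2 fold change.

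Genes with an adjusted p under 0.05 numbered 0 in all, 106 when the library set was the block, and 0 to 167 with 1 library left out: 167 without siR-GAL3 2, 17 without siR-Con 1, 4 without siR-Con 3 and 1 without siR-GAL3 1. With the replicate number as a block they numbered 6. Same-numbered libraries deviated from their group means with correlations of -0.17, -0.07 and 0.04. The authors had corrected differences within groups, so these correlations cannot decide whether the replicate numbers pair the samples. The cause of the changes in the number of genes was not tested.

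The depth is unknown, the authors corrected the groups internally, and each group held 3 libraries, which limits every SD and SE given here. The values near 0 are the least certain.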

Other observations

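Relatives of the listed genes were taken by symbol after the data had been seen. Of 22 relatives with values of their own from the GBP, IFIT, IFITM, OAS, IRG, PARP, SAMD9 and TRIM families and IFI30, 20 had a higher fitted value in siR-GAL3 and 11 were above every control in every siR-GAL3 library, against 51% and 9.01% of all genes listed. SAMD9, the paralogue of the unlisted SAMD9L, was at 0.497, 0.167 and 0.143 in siR-Con 1, 2 and 3 and at 1.74, 0.833 and 0.879 in siR-GAL3 1, 2 and 3. PARP12, an antiviral PARP, was at 0.991, 0.671 and 0.741 and at 1.98, 1.39 and 1.31 (log2 fold change 0.50, limma adjusted p = 0.262), TRIM34 at 0.714, 0.602 and 0.627 and at 1.80, 1.07 and 1.15, and GBP6 at 0.226, 0.278 and 0.238 and at 1.21, 0.452 and 0.465. Of the 5 relatives whose mean reached 1, only PARP12 was without overlap. IFI30, TRIM5, TRIM26 and IRGQ overlapped, with fitted values of 0.13, 0.18, 0.07 and -0.23 (limma adjusted p = 0.604, 0.590, 0.684 and 0.574). GBP1, OAS1E and OAS1H were without overlap at means of only 0.0112, 0.0403 and 0.00537. In SAMD9, PARP12, TRIM34 and GBP6 siR-GAL3 1 was the highest library, as in most of the listed genes.

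The ISRE-like letters were also looked for in the promoters of genes outside the list with a mean of at least 1. Of 171 genes with a match, 24 (14%) were higher and 6 (3.51%) lower in siR-GAL3 at an unadjusted p under 0.05 with limma, and 35 (20.5%) lay above every control in every siR-GAL3 library. Of 6661 genes without a match, the shares were 3.93%, 3.99% and 9.91%. With the nucleic acid, JAK-STAT and MHC class I lists left out, 18 of 163 genes with a match (11.0%) were higher and 6 (3.68%) lower. This comparison was made after the data had been seen and the difference between the shares was not tested.

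The summed level of 6 lymphocyte markers was 0.0801 to 0.224 in siR-Con and 0.260 to 0.380 in siR-GAL3, of 6 endothelial markers 1.48 to 1.68 and 1.5 to 1.70, and of 7 fibroblast and mural markers 43.1 to 50.7 and 33.1 to 38.1.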
